A study of Bos taurus with 24 samples.

Results

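Haptoglobin (HP) and lipopolysaccharide-binding protein (LBP) are acute phase proteins, plasma proteins whose blood level changes during infection or injury. Their transcripts were followed in liver and mammary biopsies of dry, late pregnant Holstein cows. The genes were taken by Ensembl ID from the raw read counts of both tissues: HP is ENSBTAG00000006354 and LBP is ENSBTAG00000016864. The names come from the rule that chose the genes, since the deposited tables hold IDs alone. A further ID given by the rule, ENSBTAG00000010433, named as the mammary serum amyloid A gene M-SAA3.2, is not analysed here, because neither raw count table used has a row for it. The description therefore covers 2 of the 3 IDs given, out of 27607 gene IDs. Both genes passed the filter on low counts in both tissues. The counts are on the cattle build ARS-UCD1.2, for which no annotation was used here, so no positions are given.

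HP binds haemoglobin released from red cells and delivers it for uptake through the macrophage receptor CD163. LBP carries bacterial lipopolysaccharide to CD14 and so to the receptor TLR4. Hepatocytes are the main source of both in plasma, and cytokines such as IL-6 and IL-1 raise their transcription. In cattle, HP is a major acute phase protein that is very low in healthy animals and is measured in blood and milk as a marker of disease, including metritis and mastitis.

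The libraries number 24, and each group holds 6. All cows were multiparous Holsteins, no longer milked from 60 d before expected calving and biopsied 21 d before it. From 35 d before expected calving, control cows had light at 150 lx for 16 h and darkness for 8 h, at fixed hours. Phase shift cows had the same hours of light, moved by 6 h every 3 d, with 2 weeks of treatment and at least 5 shifts before the biopsy. The treatments were kept in different partitions of 1 barn, and an effect of the partition cannot be told apart from one of the treatment. Assignment was blocked by lactation number and earlier yield, and the labels give neither the blocks, the ages of the cows nor the hour of the biopsies. The libraries carry 13 cow labels, 6 control and 7 phase shift, and 11 cows have both tissues. Control and phase shift cows that share a number are different cows.

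Liver libraries held 7.68 to 26.9 M counts (mega counts) and mammary libraries 5.05 to 13.1 M. Levels are given in CPM, the reads of a gene per M counts of its library after trimmed-mean (TMM) scaling within the tissue. They are not adjusted for transcript length, so the genes are not compared with each other in level. A library is called raised for a gene at 4-fold or more over the median of the other libraries of its tissue. By that measure 3 libraries stand apart over all genes: the liver of phase shift cow 22 with 585 raised genes, and the mammary glands of phase shift cow 21 with 472 and control cow 26 with 721. The other livers had 7 to 29 raised genes and the other mammary libraries 18 to 98. The tissue labels could not be checked against named markers, since the IDs are not paired with symbols. Described in their place are 127 transcripts at a median of at least 50 CPM in liver and at most 0.25 CPM in mammary, chosen after the data were seen. They were chosen by the labels, so a low level in most glands follows from the choice and does not check the labels. In each mammary library but that of phase shift cow 21, the median level of the 127 was between 0 and 0.0766% of the liver level. In phase shift cow 21 it was 1.02%.

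In liver, HP differed between cows far more than most genes did, and the high and low cows belonged to both treatments. The lowest control liver had 11.4 CPM, the median was 93.5 CPM and the highest 1232 CPM (mean 258, SD 479, n = 6). Phase shift livers had a lowest level of 17.0 CPM, a median of 70.4 CPM and a highest of 112 CPM (mean 66.2, SD 41.4, n = 6). The groups overlapped: 1 control cow lay above every phase shift cow and 2 control cows lay below every phase shift cow.

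**Figure D1:**
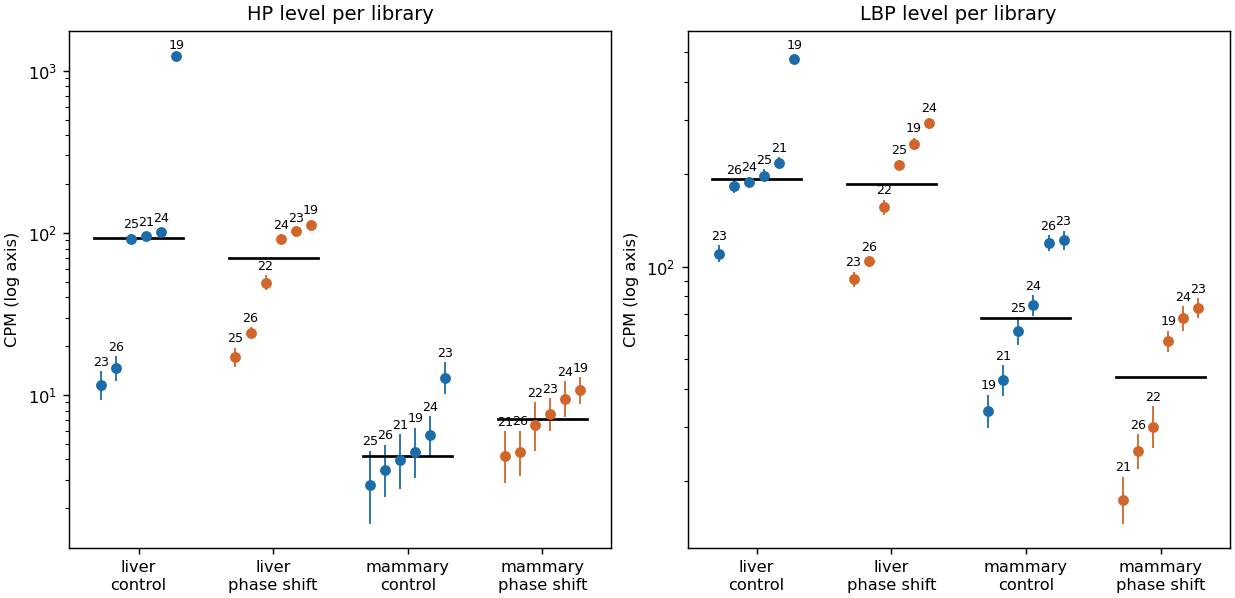
CPM of HP (left) and LBP (right) in each library, on log axes, by tissue and treatment. Points are libraries labelled with the cow number, blue for control and orange for phase shift, vertical bars are 95% Poisson intervals of the count and horizontal lines are group medians. HP in liver shows 6 libraries between 91.5 and 112 CPM, 4 between 11.4 and 24.2 CPM and control cow 19 at 1232 CPM, while LBP spans a narrower range in liver.

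Ordered by level and split wherever neighbours were more than 1.5-fold apart, the liver HP values fell into 4 steps. The lowest step held control cows 23 and 26 and phase shift cows 25 and 26, at 11.4 to 24.2 CPM. Phase shift cow 22 stood alone at 49.3 CPM. The next step held 3 control and 3 phase shift cows within 91.5 to 112 CPM, a spread of 1.23-fold over 6 cows. Control cow 19 stood alone at 1232 CPM, 108-fold above the lowest liver. Counting error was small against these steps: the lowest liver, control cow 23, had 96 HP reads and a 95% Poisson interval of 9.26 to 14.0 CPM, which covers counting error only.

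Control cow 19 had the only liver raised for HP. Its HP level was 13.5-fold over the median of the other 11 livers, the 4th largest excess of any gene in that library. In this library 0.211% of the 13752 genes compared were raised 4-fold or more, 29 genes in all. At the other end, HP was 4-fold or more below the median of the others in 3 livers. These were control cow 23 at 8.04-fold lower, control cow 26 at 6.30-fold lower and phase shift cow 25 at 5.39-fold lower. In those livers the share of genes lowered 4-fold or more was 0.545%, 0.393% and 0.502%.

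HP ranked 41st of 13752 liver genes by the standard deviation of log2 CPM over cows, at 1.83 against a median gene of 0.28. Without control cow 19 the standard deviation was 1.30 and the rank 161st. LBP had a standard deviation of 0.67 and ranked 1259th. HP was thus among the most variable transcripts of the liver in these cows with and without the cow of highest level.

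LBP in liver was steadier, and its highest cow was the same one. Control livers had a lowest level of 110 CPM, a median of 193 CPM and a highest of 476 CPM (mean 229, SD 126, n = 6). Phase shift livers had 91.1 CPM at the lowest, a median of 185.5 CPM and a highest of 293 CPM (mean 185, SD 81.6, n = 6). The highest control liver was again control cow 19, at 2.52-fold over the median of the other livers, and 2 phase shift cows, 23 and 26, lay below every control cow. No liver was raised or lowered 4-fold for LBP. The other 11 livers formed 1 step of 3.22-fold in all, from 91.1 to 293 CPM.

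The rule that chose the genes points to the liver of phase shift cow 22 as a raised library, and HP and LBP were not raised in it. The remaining ID given by the rule has no row, so its level in that liver is unknown. That liver stood below the median of the other livers for both genes, at 0.536 of it for HP and 0.789 of it for LBP. On library totals the values were 0.432 for HP and 0.635 for LBP. Its 585 raised genes, 4.25% of the genes compared, included neither.

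HP and LBP did not differ detectably between treatments in liver. With edgeR's quasi-likelihood test, HP had a log2 fold change of -1.96 (SE 1.10, 95% interval -4.38 to 0.45, phase shift minus control), with an edgeR unadjusted p of 0.101 and an adjusted p of 0.734. LBP had -0.31 (SE 0.38, interval -1.14 to 0.53) with an edgeR adjusted p of 0.870. Neither of the 2 genes was called, and of all 13752 liver genes tested 0% were called, with 813 (5.91%) at an unadjusted p under 0.05. The median log2 fold change of all liver genes was 0.01 and the median SE 0.16. The HP fold change was the 4th lowest of all genes tested, and its SE was larger than that of 99.7% of them. DESeq2, which called 16 other genes in liver, gave HP no p-value after its check for extreme counts.

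The liver fold change of HP rested on control cow 19. Without that library the edgeR log2 fold change was 0.07 (unadjusted p = 0.925, adjusted p = 0.989), and that of LBP was 0.05 (edgeR adjusted p = 0.983), so both turned sign. The 5 other control livers had a mean of 62.9 CPM of HP (SD 45.7), against 66.2 CPM in phase shift livers. The exact two-sided permutation test of mean log2 CPM, in which a single high cow weighs less, gave a difference of -0.52 for HP (p = 0.695) and -0.29 for LBP (p = 0.494). Over the 924 assignments of 12 cows the smallest possible p is 0.00216.

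**Figure D2:**
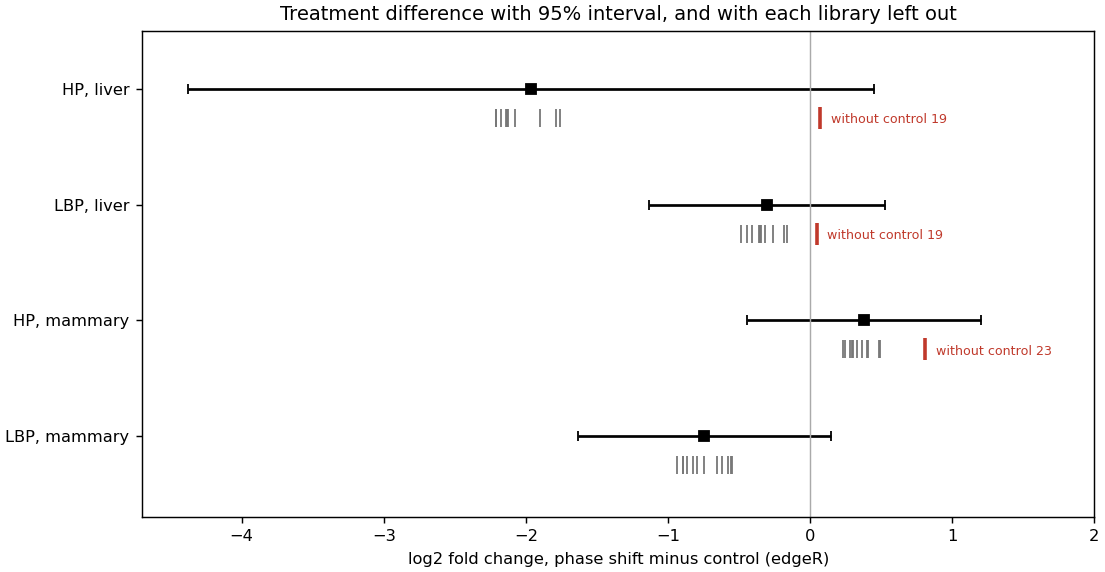
Log2 fold change of phase shift minus control from edgeR for HP and LBP in liver and mammary (x axis). Black squares are the fits to 12 libraries with 95% intervals, grey ticks the same fit with each library left out, and red ticks mark the named control cow left out. All 4 intervals cross 0, and HP in liver moves from -1.96 to 0.07 without control cow 19.

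In mammary gland, HP was counted from few reads. Control glands had a lowest level of 2.79 CPM, a median of 4.21 CPM and a highest of 12.8 CPM (mean 5.51, SD 3.68, n = 6). Phase shift glands had 4.21 CPM at the lowest, a median of 7.05 CPM and a highest of 10.7 CPM (mean 7.15, SD 2.63, n = 6). These levels rest on 16 to 114 reads a library, and the 95% Poisson interval of the lowest, control cow 25, was 1.60 to 4.53 CPM. The groups overlapped, with 1 control cow above every phase shift cow and 3 control cows below every phase shift cow.

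The highest mammary HP was in control cow 23, at 12.8 CPM and 2.86-fold over the median of the other glands. Phase shift cows 19 and 24 followed at 10.7 and 9.49 CPM, and the 3 Poisson intervals overlapped. No gland was raised or lowered 4-fold for HP. By the spread of log2 CPM over cows, HP ranked 3593rd of 15547 mammary genes, with a standard deviation of 0.66 against a median of 0.39. From lowest to highest, HP spanned 4.57-fold over the glands, against 108-fold over the livers.

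LBP was well measured in the gland, at 128 to 1070 reads a library. Control glands had a lowest level of 33.8 CPM, a median of 68.3 CPM and a highest of 122 CPM (mean 75.8, SD 37.7, n = 6). Phase shift glands had 17.4 CPM at the lowest, a median of 43.6 CPM and a highest of 73.5 CPM (mean 45.2, SD 24.0, n = 6). The groups overlapped, with 3 control cows above every phase shift cow and 3 phase shift cows below every control cow. Control cows 23 and 26 were highest, at 122 and 119.5 CPM, 2.14-fold and 2.09-fold over the median of the other glands.

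The glands of phase shift cow 21 and control cow 26 are also named as raised by the rule. Neither was raised 4-fold for HP or LBP, and the remaining ID of the rule could not be looked at. In phase shift cow 21, HP was 0.749 of the median of the other glands and LBP 0.282 of it, the lowest LBP of the 12. In control cow 26, HP was 0.616 of that median, the second lowest, while LBP was second highest at 2.09-fold over it. Of all genes compared, 3.04% were raised in phase shift cow 21 and 4.64% in control cow 26, and neither set held HP or LBP. LBP lay at opposite ends in these 2 libraries, although both stand apart from the rest over all genes.

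Neither gene differed detectably between treatments in the gland. The edgeR log2 fold change of HP was 0.38 (SE 0.38, interval -0.44 to 1.205) with an adjusted p of 0.945. That of LBP was -0.74 (SE 0.41, interval -1.64 to 0.15), with an edgeR unadjusted p of 0.0942 and an adjusted p of 0.923. Of 15547 mammary genes 0% were called, 739 (4.75%) had an unadjusted p under 0.05, and the median log2 fold change was -0.01. DESeq2 also called 0 mammary genes, with 985 at an unadjusted p under 0.05. By exact permutation the differences in mean log2 CPM were 0.46 for HP (p = 0.240) and -0.78 for LBP (p = 0.119). Adjusted over the 4 combinations of gene and tissue, the lowest exact permutation p was 0.476.

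Single glands moved these values without bringing a call. Without control cow 23 the log2 fold change of HP was 0.81 (edgeR unadjusted p = 0.0196, adjusted p = 0.857). With each gland left out in turn, LBP ran from -0.94 to -0.55. It was -0.90 without control cow 19 (edgeR unadjusted p = 0.0471, adjusted p = 0.876). Without phase shift cow 23 it was -0.94 (edgeR unadjusted p = 0.0496, adjusted p = 0.614), and without control cow 26 it was -0.55. Without both libraries that stand apart, phase shift cow 21 at the low end of LBP and control cow 26 near the high end, LBP had -0.39 (edgeR adjusted p = 0.928). In bulk tissue, fewer cells of a type that makes a transcript and less of it per cell cannot be told apart.

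Between the tissues, both transcripts were lower in the gland than in liver. Averaged over treatments, HP had a log2 difference of -5.36, mammary minus liver (SE 0.66, interval -6.73 to -3.99, edgeR adjusted p = 1.26e-07). LBP had -2.79 (SE 0.31, interval -3.43 to -2.16, edgeR adjusted p = 1.86e-08). In this comparison 72.8% of 16656 genes were called, 33.9% lower in mammary and 38.9% higher, so a call by itself is common. HP was the 604th lowest of the 16656 differences and LBP the 1284th lowest. With the cow as a block, over 11 cows, the differences were -4.59 for HP (edgeR adjusted p = 9.42e-06) and -2.71 for LBP (edgeR adjusted p = 5.24e-06).

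The size of the tissue difference depends on the scaling. TMM scaling put the median of all genes at 0.08 between the tissues, and scaling to library totals put it at 1.08. On library totals the differences were -4.34 for HP and -1.82 for LBP, both still past the threshold in edgeR (adjusted p = 1.32e-06 and 4.43e-06). Without the liver of control cow 19 the HP difference was -4.35.

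Cow by cow, with the 24 libraries scaled together, the liver exceeded the gland in 11 of 11 cows for each gene. The mean log2 excess of liver was 4.51 for HP (SD 2.04, n = 11) and 2.67 for LBP (SD 1.11, n = 11). An exact two-sided sign-flip permutation over cows gave p = 0.000977 for each gene, the smallest that 11 cows can give. The excess ranged widely, for HP from 1.77-fold in control cow 23 to 518-fold in control cow 19, and for LBP from 1.81-fold to 27.9-fold in the same cows.

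**Figure D3:**
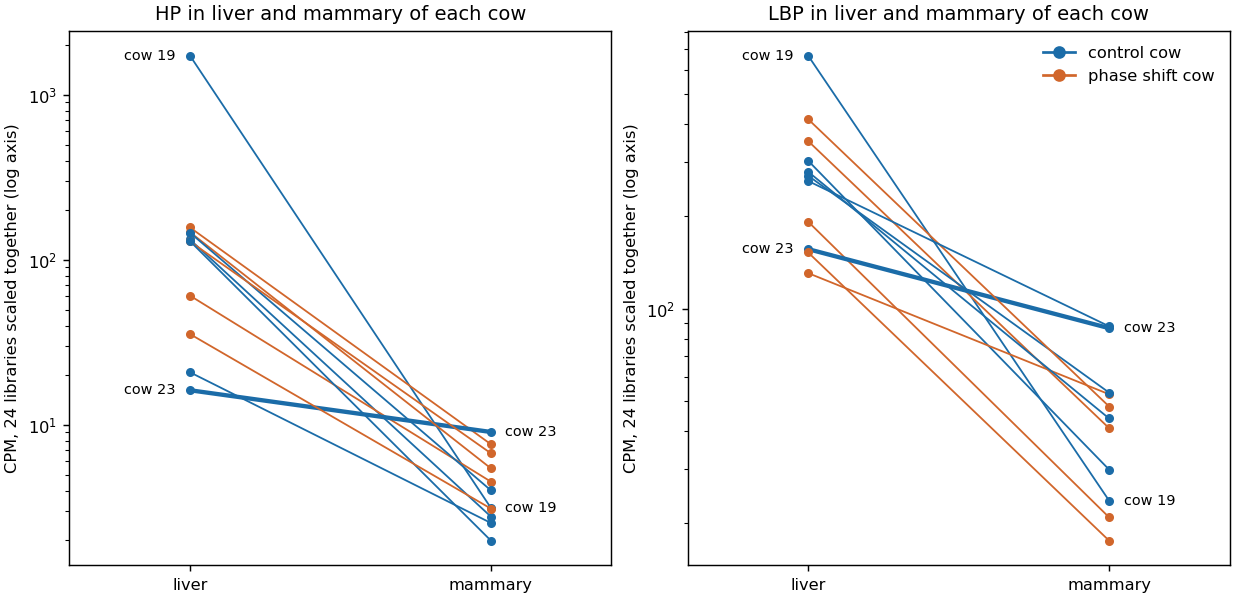
Level of HP (left) and LBP (right) in liver and mammary gland of the 11 cows with both tissues, as CPM with the 24 libraries scaled together, on log axes. Lines join the libraries of a cow, blue for control and orange for phase shift, and the thick line is control cow 23. Every line falls from liver to mammary, most steeply in control cow 19 and least in control cow 23.

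Control cow 23 had the lowest HP of all livers and the highest HP of all glands. Its gland also had the highest LBP with scaling within the tissue. With the 24 libraries scaled together, the gland of control cow 26 had 87.8 CPM of LBP and that of control cow 23 had 86.5 CPM. On library totals the gland of control cow 23 exceeded its liver for both genes, with 14.1 against 11.5 CPM of HP and 135 against 111 CPM of LBP. It was the only cow in which the order of the tissues depended on the scaling, and on library totals liver was higher in 10 of 11 cows (exact permutation p = 0.00195 for each gene). In control cow 19 the liver was highest for both genes. Its gland ranked 7th of the 12 for HP, at 4.47 CPM, and so was not low for HP. For LBP it stood at 33.8 CPM, the lowest of the control glands.

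Mammary levels were compared with those of the 127 transcripts abundant in liver and near absent from the gland. Relative to the liver median, HP in the gland stood at 1.53 to 6.98% and LBP at 4.44 to 31.8% over the 12 glands. The 127 were chosen for a low level in the gland, so their median is low by choice. Both genes were above it in each gland, which in most glands follows from that choice. That median was 1.02% in phase shift cow 21, where HP stood at 2.29% and LBP at 4.44%. In control cow 23 the median was 0.0197%, with HP at 6.98% and LBP at 31.4%.

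An interaction term asked whether liver and gland responded differently to phase shifts. HP had a difference of 2.36 between the log2 fold changes, mammary minus liver (SE 1.15, interval -0.01 to 4.73), with an edgeR unadjusted p of 0.0512 and adjusted p of 0.737. LBP had -0.43 (SE 0.57, edgeR adjusted p = 0.926). None of 16656 genes was called in edgeR (0%), 1111 (6.67%) had an unadjusted p under 0.05, and DESeq2 called 1 gene and had 1171 at an unadjusted p under 0.05. Without the liver of control cow 19 the HP difference was 0.34 (edgeR unadjusted p = 0.672, adjusted p = 0.968), and with the cow as a block it was 0.82 (edgeR adjusted p = 0.940).

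In order of mean level, HP ran from control liver at 258 CPM over phase shift liver at 66.2 CPM and phase shift gland at 7.15 CPM to control gland at 5.51 CPM. LBP ran from control liver at 229 CPM over phase shift liver at 185 CPM and control gland at 75.8 CPM to phase shift gland at 45.2 CPM. Without control cow 19 the control liver means were 62.9 CPM for HP and 179 CPM for LBP, each below that of phase shift liver. These CPM were scaled within each tissue, so the gaps between tissues depend on the scaling. For both genes the neighbours within a tissue did not differ beyond the spread between cows, and the tissues did.

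The correlation of HP with LBP over livers did not pass after adjustment, and r was lower without control cow 19. Pearson's r of log2 CPM was 0.647 (permutation p = 0.0249, 0.0994 adjusted over 4 relations) and Spearman's rho 0.441 (permutation p = 0.154) over 12 livers. Without the 2 livers farthest from the median of HP, control cows 19 and 23, r was 0.181. Those are the highest and lowest livers for HP. Leaving them out narrows the range, which can lower r by itself, so no conclusion is drawn from that value. Without control cow 19 alone it was 0.346 (permutation p = 0.298). Among 13751 other liver genes, LBP was 252nd in likeness to HP over the 12 livers and 1788th without control cow 19.

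**Figure D4:**
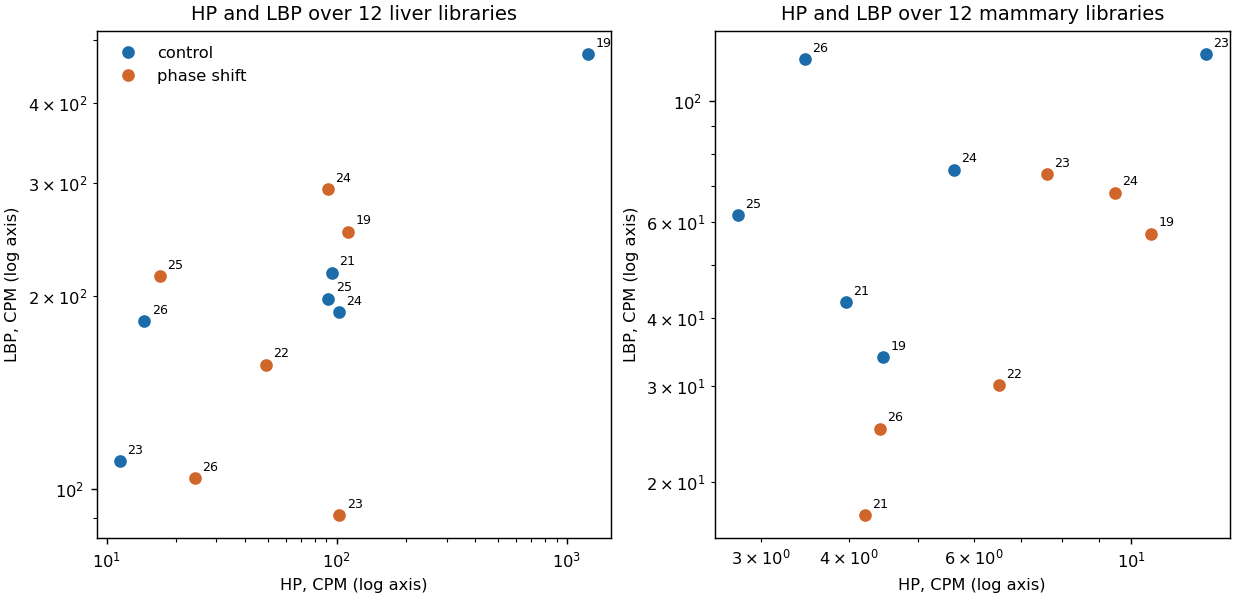
HP (x axis) against LBP (y axis) in CPM on log axes, for 12 livers (left) and 12 mammary glands (right). Points are libraries labelled with the cow number, blue for control and orange for phase shift. Control cow 19 lies alone at the upper right in liver, and in mammary control cow 26 has high LBP with low HP.

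In mammary gland r was 0.338 (permutation p = 0.281) and rho 0.280 (permutation p = 0.380) over 12 glands. Without the glands of control cow 26 and phase shift cow 21 r was 0.537 (permutation p = 0.109, 10 glands), and without the 2 glands farthest in HP, control cow 23 and phase shift cow 19, it was 0.0874. No correlation was detected between liver and gland of the same cow: r was -0.152 for HP (permutation p = 0.669) and -0.176 for LBP (permutation p = 0.604) over 11 cows, with rho of 0.0545 (permutation p = 0.883) and -0.173 (permutation p = 0.614). Without the 2 cows farthest in liver level, r was 0.446 for HP and 0.154 for LBP. None of the 4 relations passed after adjustment.

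The genes most like HP and LBP over the 12 libraries of a tissue are given by ID, with Pearson's r of log2 CPM as a description over libraries that share their depth and their cows. In liver, ENSBTAG00000053346 (r = 0.927) and ENSBTAG00000002415 (r = 0.893) were most like HP. Their levels ran only from 3.57 to 5.88 CPM and from 121 to 222 CPM, far less than the 108-fold range of HP. ENSBTAG00000046540 (r = 0.919) and ENSBTAG00000004680 (r = 0.876) were most like LBP in liver. The first ran from 1731 to 4019 CPM and the second from 4.50 to 57.0 CPM. In mammary, ENSBTAG00000016528 (r = 0.914) and ENSBTAG00000032603 (r = 0.868) were most like HP, and ENSBTAG00000014238 (r = 0.958) and ENSBTAG00000000236 (r = 0.901) most like LBP. ENSBTAG00000053346 was also first for HP without control cow 19 (r = 0.919), and ENSBTAG00000014238 also first for LBP without the mammary libraries that stand apart (r = 0.929).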

How the data were processed

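Total RNA was depleted of ribosomal RNA and sequenced as paired reads, per the labels' protocols. Per the submitters' processing notes, reads were trimmed with Trimmomatic 0.36, aligned with STAR 2.5.2b to ARS-UCD1.2 and counted with featureCounts of Subread 1.5.2, and DESeq2 was used. The strand setting and annotation release were not stated in these notes. Whether reads of overlapping genes on opposite strands were told apart is therefore unknown. The authors deposited raw read counts per Ensembl ID, normalized counts (a signal: counts over a size factor per library) and regularized log values on the log2 scale. Raw counts were the basis of every main test; the other tables served as alternatives. Each deposited column maps to 1 sample by its name.

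Tests used edgeR 4.0.16 in R 4.3.3 (quasi-likelihood, robust, TMM, filterByExpr with a minimum count of 10 and total of 15), with Benjamini-Hochberg adjustment over all genes tested and a threshold of 0.05; DESeq2 1.42.0 and limma-voom (limma 3.58.1) were alternatives. Log2 CPM used a prior count of 2. Single values were compared by exact two-sided permutation over cows, correlations by 100000 permutations (SciPy 1.17.1). Within a tissue the replicates are cows. Libraries of the same cow are paired across tissues by the labels; the main fit across tissues takes them as independent.

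The genes and lists were chosen with earlier results of these data known, and the attention to control cows 19 and 23, the steps, the sign-flip test and the 127 transcripts followed from their values. Named besides HP and LBP are, by rule, the 2 genes of highest Pearson's r to each in each tissue. Of 37063 genes in the RefSeq table at hand (assembly ARS-UCD2.0), 0 carry an Ensembl ID, so the planned lists of other acute phase genes and of cell type markers were not used, and no sequences are printed.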

Additional observations from a re-analysis of the deposited data

Results flagged for a closer look

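In 3 of 8 groups of 6 values, a cow stood apart from its group, with a gap to its neighbour that, divided by the whole range of the 6 values, exceeded Dixon's 95% critical value. The gaps were taken on CPM, a skewed scale, and 2 of the 3 come from 1 liver. On log2 CPM, the scale of the tests, 0 of 8 groups had such a gap, so no cow stood apart by this measure there. The rate of about 1 group in 20 by chance holds for normally distributed values and is not a guide here. All 3 are in control groups. HP in the liver of control cow 19 was 1232 CPM, where the next control liver had 102 CPM (a gap of 0.926 of the range, 0.535 on log2 CPM). LBP in the same liver was 476 CPM, where the next had 217 CPM (0.707 of the range, 0.536 on log2 CPM). HP in the mammary gland of control cow 23 was 12.8 CPM, where the next control gland had 5.62 CPM (0.716 of the range, 0.547 on log2 CPM). In the phase shift groups of either tissue no such gap was seen for HP or LBP on either scale.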

How the results depend on the processing

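The direction of the liver difference depended on 1 cow for HP and, in edgeR and DESeq2, for LBP. Without control cow 19, the log2 fold change was 0.069 for HP and 0.045 for LBP in edgeR, 0.073 and 0.048 in DESeq2, and the permutation difference of HP was 0.29, while that of LBP was -0.048 and kept its direction. With each liver left out in turn, HP ran from -2.21 to 0.069, LBP from -0.48 to 0.045, and the permutation difference of HP from -1.06 to 0.29. In limma-voom, HP in liver was -0.55. The number of liver genes called, 0 in edgeR, was 16 with DESeq2, 4 with DESeq2 without control cow 19, 2 with the shared number as a replicate block and 0 to 1 with a liver left out; for the interaction it was 1 with DESeq2. Neither HP nor LBP was called for treatment or interaction in any alternative that gave a p-value. DESeq2 gave none for HP in liver with control cow 19 included, so no call was possible there. The correlation of LBP between liver and mammary was 0.053 without control cow 19, and the LBP interaction was 0.13 with the cow as a block and without control cow 23. With the shared number as a block, over 5 pairs a tissue, HP had -0.55 in liver and 0.34 in mammary, and LBP -0.25 and -0.73. Same-numbered cows correlated at -0.0845 to 0.101 in liver and -0.384 to 0.165 in mammary. The closest control had the same number for phase shift cows 19 and 23 in liver and another number in the other pairs. Such correlations cannot show whether the number marks a block of the assignment, which the labels do not give. The tissue difference of both genes held its direction and call in every alternative run. Mammary HP rests on 16 to 114 reads a library. Alternatives that left out control cow 19 or 23, or used library totals, were added after the data were seen.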
